A study of Mus musculus with 12 samples.

Results

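AMPA and NMDA receptors are the ion channels that carry most fast excitatory signalling in the brain, and the genes for their subunits were examined here in embryonic mouse brain after prenatal alcohol exposure. Members were the rows of the deposited gene and transcript tables whose gene name was Gria1, Gria2, Gria3, Gria4, Grin1, Grin2a, Grin2b, Grin2c, Grin2d or Grin3a. Of these 10 names, 9 were in the gene table (of 13770 gene models) with 28 transcripts (of 29097), and Grin2c was not analysed here. Poly-A RNA was sequenced from 12 whole brains of C57BL/6 mice (the labels' name for the strain, C57BL/6J in the study's methods) at embryonic day 18, 1 library per brain. Dams of the PAE group drank ethanol in saccharin-sweetened solution for a limited time each day through mating and pregnancy, and dams of the SAC group drank the saccharin solution alone, so that saccharin was common to both groups. The 6 PAE brains were ES19-4, ES23-7 and ES27-4 (female) and ES19-8, ES23-4 and ES27-1 (male). The 6 SAC brains were SAC12-5, SAC26-5 and SAC26-7 (female) and SAC12-6, SAC12-7 and SAC26-8 (male). The name prefixes (3 in PAE, 2 in SAC) each hold brains of 1 treatment, and the labels do not say what a prefix stands for (a litter, for example). The tests took brains as independent and measure only the spread between them.

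AMPA receptors are assembled from the subunits GluA1 to GluA4, encoded by Gria1 to Gria4. They open within milliseconds of glutamate binding, and a GluA2 subunit that has been RNA-edited in its pore keeps calcium out of the channel. NMDA receptors need both glutamate and glycine (or D-serine), let calcium in, and hold an obligatory GluN1 subunit (Grin1) together with GluN2 (Grin2a to Grin2d) or GluN3 (Grin3a) subunits. In the rodent brain GluN2B and GluN2D are known as the early GluN2 subunits, GluN2A as the one that rises after birth, and GluN3A as a subunit of immature synapses.

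Much of the variety of these receptors comes from alternative exons, and the exons that set the listed transcripts apart are shown here because the isoform results below rest on them. Each AMPA receptor gene carries a pair of mutually exclusive exons, flip and flop, of 115 bases each. The exons encode part of the ligand-binding domain, and the choice between them alters how fast the receptor desensitizes. They lie on GRCm38 at chr11:57310608-57310722 (Gria1 flip), chr11:57309769-57309883 (Gria1 flop), chr3:80690404-80690518 (Gria2 flip), chr3:80691320-80691434 (Gria2 flop), chrX:41669501-41669615 (Gria3 flip), chrX:41654810-41654924 (Gria3 flop), chr9:4427030-4427144 (Gria4 flip) and chr9:4432773-4432887 (Gria4 flop). Gria1 and Gria3 are on the plus strand, Gria2 and Gria4 on the minus strand. The sequences were read 5′ to 3′ from the GENCODE M21 transcripts, and capitals mark the bases at which flip and flop of the same gene differ.
Gria1 flip: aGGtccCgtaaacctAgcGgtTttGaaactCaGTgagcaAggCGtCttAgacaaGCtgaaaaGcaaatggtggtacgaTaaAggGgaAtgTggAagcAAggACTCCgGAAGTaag
Gria1 flop: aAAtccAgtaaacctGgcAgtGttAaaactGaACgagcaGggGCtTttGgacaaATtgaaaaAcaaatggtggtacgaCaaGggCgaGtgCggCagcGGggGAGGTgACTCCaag
Gria2 flip: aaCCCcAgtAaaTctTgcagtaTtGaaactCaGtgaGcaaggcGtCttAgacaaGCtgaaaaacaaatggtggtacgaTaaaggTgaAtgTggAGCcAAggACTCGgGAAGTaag
Gria2 flop: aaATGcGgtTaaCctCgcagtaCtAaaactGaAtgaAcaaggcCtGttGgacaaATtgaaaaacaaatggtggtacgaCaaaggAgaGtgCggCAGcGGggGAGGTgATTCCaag
Gria3 flip: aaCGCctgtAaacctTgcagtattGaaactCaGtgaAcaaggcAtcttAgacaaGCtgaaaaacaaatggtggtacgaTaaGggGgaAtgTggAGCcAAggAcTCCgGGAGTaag
Gria3 flop: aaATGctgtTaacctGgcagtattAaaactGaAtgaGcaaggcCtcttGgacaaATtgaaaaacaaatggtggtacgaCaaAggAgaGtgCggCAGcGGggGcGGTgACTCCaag
Gria4 flip: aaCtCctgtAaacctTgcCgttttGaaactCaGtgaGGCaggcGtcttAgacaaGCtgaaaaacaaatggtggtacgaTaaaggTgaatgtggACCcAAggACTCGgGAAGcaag
Gria4 flop: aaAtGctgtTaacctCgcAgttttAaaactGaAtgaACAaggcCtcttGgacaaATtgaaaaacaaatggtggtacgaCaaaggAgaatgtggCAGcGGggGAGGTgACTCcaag
Flip and flop differed at 36 of 115 bases in Gria1 and in Gria2, at 32 in Gria3 and at 31 in Gria4.

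Grin1 carries the N1 cassette (63 bases, chr2:25311343-25311405, minus strand), which encodes a stretch of the extracellular amino-terminal domain, and the C1 cassette (111 bases, chr2:25294438-25294548, minus strand) in the intracellular tail. Both are shown because the 8 listed Grin1 transcripts are the 8 combinations of N1, C1 and the last exon (the C2 or C2′ tail). Each cassette is given whole, with no base marked.
Grin1 N1: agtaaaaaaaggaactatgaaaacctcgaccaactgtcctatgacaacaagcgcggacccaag
Grin1 C1: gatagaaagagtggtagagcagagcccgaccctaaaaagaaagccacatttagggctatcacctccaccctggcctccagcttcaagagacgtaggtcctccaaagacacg

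The tables hold FPKM (fragments scaled to transcript length and library size), so read depth was unknown and no counting interval could be given. Library sums of gene FPKM were between 218026 and 232863, and 12025 to 12459 genes reached 1 FPKM. Brains differed in hindbrain and spinal cord markers in a way that ran with treatment. The summed level of 14 Hox genes was 0.0475 to 0.178 FPKM in 5 of the 6 PAE brains and 62.9 FPKM in ES19-4, against 24.6 to 70.2 FPKM in 5 of the 6 SAC brains and 0.261 FPKM in SAC12-6. Hoxa4 was listed at 0 in those 5 PAE brains and in SAC12-6. Summed markers of cortical excitatory neurons were 374 to 532 FPKM in PAE and 238 to 389 FPKM in SAC brains (5 of 7 markers higher), those of astrocytes 162 to 301 and 256 to 352 FPKM (2 of 7 lower), and those of the cerebellum 13.4 to 27.7 and 23.0 to 32.2 FPKM (2 of 4 tested lower). Those of the oligodendrocyte lineage were 35.2 to 55.6 and 51.4 to 65.7 FPKM (3 of 5 lower), and those of glycinergic and serotonergic neurons 0.144 to 5.17 and 3.10 to 9.85 FPKM (3 of 3 lower). Summed markers of GABAergic neurons were 127 to 140 and 107 to 130 FPKM (4 of 7 higher), but this list was split. The 4 were Dlx1, Dlx2, Dlx5 and Lhx6. Slc32a1 (19.2 to 28.8 and 23.1 to 29.3 FPKM) and Gad1 (12.2 to 14.96 and 13.9 to 17.9 FPKM) leaned lower in PAE brains without passing. Gad2 was nearly level (18.6 to 20.6 and 18.8 to 21.5 FPKM). For radial glia 1 of 6 markers was higher, for endothelium 1 of 4 was lower, and for microglia and choroid plexus 0 of 3 passed. Markers of neurons in general were at 857 to 958 FPKM in PAE and 894 to 930 FPKM in SAC brains, and 0 of 6 passed the test. The regions held by each brain sample and the treatment therefore cannot be told apart for most brains, and the gene-level comparison of all brains is given below also without ES19-4 and SAC12-6 and with Hox level as a covariate. The comparisons within each sex, of transcripts and of ratios were not run with that covariate. In bulk tissue, fewer cells of a type and less RNA per cell cannot be told apart either.

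Over all 12 brains Gria2 was the most abundant of the subunit genes per transcript length, with a mean of 41.6 FPKM (33.5 to 52.5). Gria1 followed at 28.2 FPKM (25.5 to 30.7), Gria4 at 19.6 FPKM (13.99 to 24.04) and Grin2b at 13.8 FPKM (11.9 to 15.9). Grin1 had 9.58 FPKM (6.70 to 13.6), Grin2d 7.72 FPKM (3.83 to 11.4), Grin3a 6.34 FPKM (3.99 to 8.45) and Gria3 5.73 FPKM (3.76 to 6.97). Grin2a was lowest at 0.706 FPKM (0.491 to 0.956). Gria2 exceeded Gria1, Gria1 exceeded Gria4 and Gria3 exceeded Grin2a in all 12 brains with no overlap of their ranges. The ranges of the other neighbours in this order overlapped, although Grin2b exceeded Grin1 within each of the 12 brains. This is the order of the gene values, and by the sum of listed transcripts parts of it changed. Grin1 and Grin2b were then at 25.5 and 16.3 FPKM in ES19-4 but at 14.7 and 15.4 FPKM in ES27-1. Gria1 and Gria4 were at 29.1 and 30.4 FPKM in SAC12-5 but at 31.4 and 27.0 FPKM in ES19-4.

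To ask which subunit genes differed after PAE, log2(FPKM + 1) was compared between the 6 PAE and the 6 SAC brains in limma across 12346 genes, those that averaged 1 FPKM or more. Of the 8 subunit genes tested, Gria4 and Grin3a were lower in PAE brains at a Benjamini-Hochberg adjusted p under 0.05 and none was higher. In the same test 5.22% of all genes were lower and 4.34% were higher. Gria4 and Grin3a also showed no overlap between the groups, as did Grin2a, which was under the expression filter. Over all tested genes, 1.92% lay wholly lower and 2.11% wholly higher in PAE brains. None of the 8 passed the cutoff of a 1.5-fold change with an unadjusted p under 0.05, which 0.996% of all genes passed. The median log2 difference of the 8 was -0.18, against 0.01 over all genes tested.

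**Figure D1:**
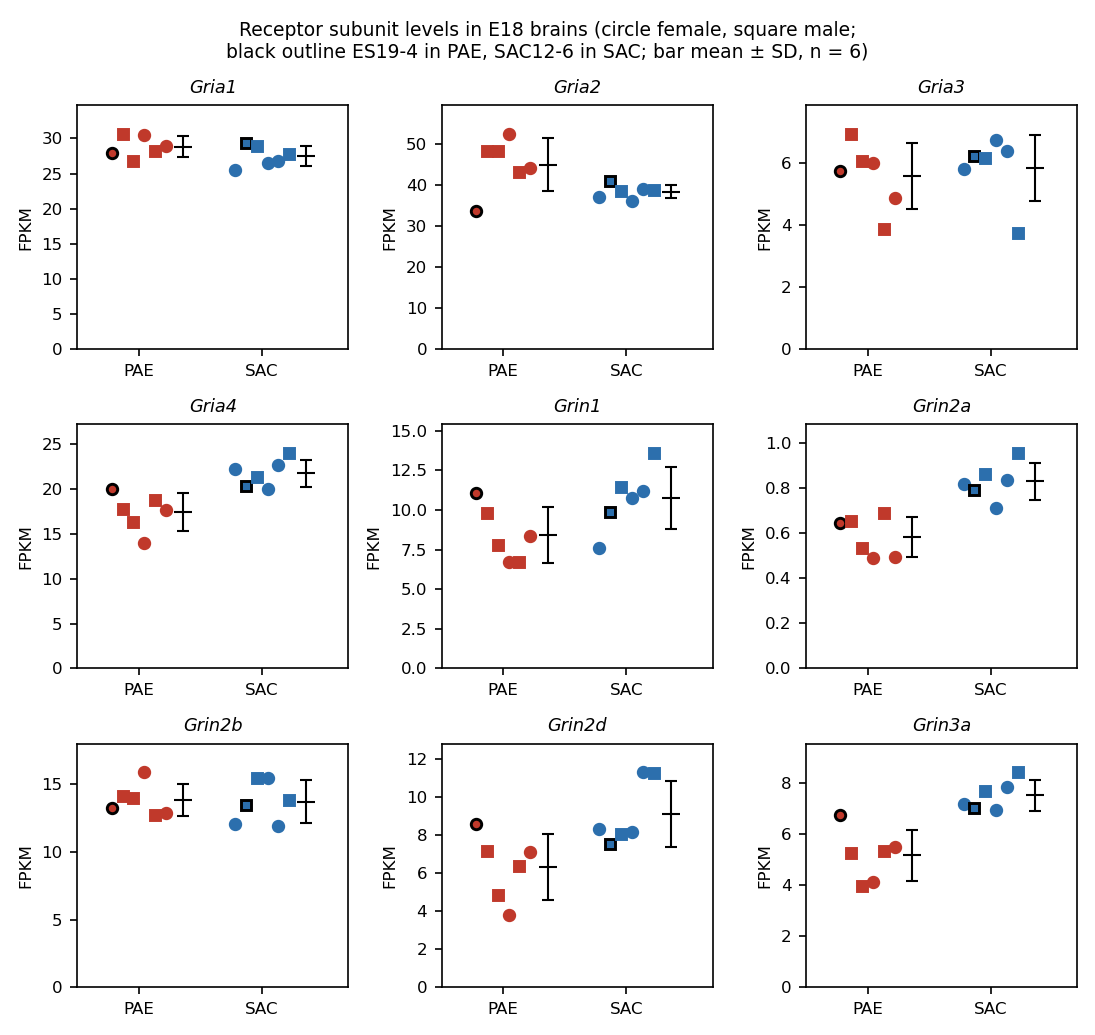
FPKM (linear axis from 0) of the 9 subunit genes in each PAE (red, left) and SAC (blue, right) brain, circles for females and squares for males, with black outlines on ES19-4 and SAC12-6 and a bar for the mean ± SD (n = 6 each). The PAE points of Gria4, Grin2a and Grin3a all lie below the SAC points, and ES19-4 is the lowest PAE point for Gria2 (33.5 FPKM) and the highest for Grin3a (6.77 FPKM).

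Gria4 encodes GluA4, an AMPA receptor subunit with fast kinetics that many brain regions use early in development (chr9:4417896-4796234, minus strand). It had 19.98, 17.8, 16.3, 13.99, 18.7 and 17.7 FPKM in PAE brains ES19-4, ES19-8, ES23-4, ES23-7, ES27-1 and ES27-4, against 22.2, 20.3, 21.3, 20.03, 22.6 and 24.04 FPKM in SAC brains SAC12-5, SAC12-6, SAC12-7, SAC26-5, SAC26-7 and SAC26-8. The groups touched without overlapping: the highest PAE brain was ES19-4, and the lowest SAC brains were SAC26-5 and SAC12-6. Means were 17.4 ± 2.07 FPKM in PAE and 21.7 ± 1.51 FPKM in SAC brains (SD, n = 6 each), a log2 difference of -0.31 ± 0.0735 (SE, limma adjusted p = 0.0274). With Hox level as a covariate the difference was -0.21 (adjusted p = 0.309). Leaving out ES23-4, SAC12-5, SAC12-7, SAC26-7 or SAC26-8 each ended the call, with limma adjusted p-values of 0.0525 to 0.0701.

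Grin3a encodes GluN3A, which lowers the calcium entry of NMDA receptors and is most abundant in young brain (chr4:49661611-49845744, minus strand). In the same order of brains it had 6.77, 5.25, 3.99, 4.14, 5.33 and 5.51 FPKM in PAE brains, against 7.17, 7.01, 7.68, 6.93, 7.86 and 8.45 FPKM in SAC brains. ES19-4 was again the PAE brain nearest to the SAC range, and the other 5 PAE brains were at or under 5.51 FPKM. Means were 5.16 ± 1.02 FPKM in PAE and 7.52 ± 0.590 FPKM in SAC brains (SD, n = 6 each), a log2 difference of -0.48 ± 0.0966 (SE, limma adjusted p = 0.0203). With Hox level as a covariate the difference was -0.33 (adjusted p = 0.233), and without SAC26-8 it was -0.45 (adjusted p = 0.0525). The gene holds 2 further gene models on its strand, Ppp3r2 and a pseudogene, so reads inside them cannot be assigned with certainty.

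Grin2a, which encodes the GluN2A subunit of mature NMDA receptors, was the third subunit gene with separate groups (chr16:9567898-9995560, minus strand). It was at 0.644, 0.651, 0.532, 0.491, 0.691 and 0.494 FPKM in PAE brains, against 0.816, 0.790, 0.860, 0.713, 0.836 and 0.956 FPKM in SAC brains. All values were under 1 FPKM, where the error of single values is unknown, and ES27-1 and SAC26-5 came closest to each other. In a fit without the filter on low values the log2 difference was -0.21 ± 0.0552 (SE, limma adjusted p = 0.0384). On this scale a pseudocount of 1 shrinks the difference of so low a gene, and with a pseudocount of 0.1 it was -0.45. Leaving out any of 9 of the 12 brains raised the adjusted p above 0.05 (0.0530 to 0.0934), the exceptions being ES19-4, ES27-1 and SAC26-5. With Hox level as a covariate it was -0.17 (adjusted p = 0.339).

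Grin2d encodes GluN2D, a slow GluN2 subunit of the embryonic brain (chr7:45831883-45878378, minus strand). It had 8.59, 7.19, 4.87, 3.83, 6.36 and 7.10 FPKM in PAE brains, against 8.33, 7.52, 8.08, 8.15, 11.4 and 11.3 FPKM in SAC brains. Only ES19-4 among the PAE brains reached the SAC range. The log2 difference was about as large as that of Grin3a, at -0.49 ± 0.156 (SE), but brains spread more and it missed the threshold (limma adjusted p = 0.0652). Without ES19-4 it was -0.57 (adjusted p = 0.0219), and with Hox level as a covariate -0.28 (adjusted p = 0.526). Its 3′ and 5′ ends share genomic positions with opposite-strand models, Kdelr1 among them, and it is not stated whether strand was used in counting.

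Grin1, for the GluN1 subunit that all NMDA receptors contain, was at 11.1, 9.83, 7.77, 6.71, 6.70 and 8.38 FPKM in PAE brains, against 7.61, 9.89, 11.4, 10.8, 11.2 and 13.6 FPKM in SAC brains (chr2:25291181-25319187, minus strand). The groups overlapped through ES19-4 at the top of the PAE group and SAC12-5 at the bottom of the SAC group. The log2 difference was -0.32 ± 0.133 (SE, limma adjusted p = 0.132), and -0.40 (adjusted p = 0.0438) without ES19-4. With Hox level as a covariate it was -0.18 (adjusted p = 0.655). Grin1 shares its locus with the antisense model Grin1os.

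Grin2b, the main GluN2 gene in these brains, gave the smallest difference of all (chr6:135713233-136173511, minus strand). Its values were 13.2, 14.1, 13.98, 15.9, 12.7 and 12.9 FPKM in PAE brains and 12.03, 13.5, 15.5, 15.5, 11.9 and 13.9 FPKM in SAC brains. The log2 difference was 0.01, with a 95% confidence interval of -0.14 to 0.17 (limma adjusted p = 0.919). Its sign changed with Hox level as a covariate (-0.02) and in 3 of the 12 fits that left out a brain.

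Gria2, which encodes the subunit that sets the calcium permeability of AMPA receptors, was the only subunit gene with an unadjusted p under 0.05 toward higher values in PAE brains (chr3:80681450-80802835, minus strand). It was at 33.5, 48.2, 48.2, 52.5, 43.1 and 44.1 FPKM in PAE brains, against 36.9, 40.9, 38.5, 36.2, 39.1 and 38.6 FPKM in SAC brains. In these gene values all PAE brains but ES19-4 lay above every SAC brain, and ES19-4 lay below every one. SAC12-6 was the highest SAC brain. The log2 difference was 0.21 ± 0.0843 (SE, limma adjusted p = 0.123). Without ES19-4 it was 0.29 (adjusted p = 0.00434), and with Hox level as a covariate 0.06 (adjusted p = 0.771). The separation was not seen in the sum of the listed Gria2 transcripts. By that sum ES19-4 had 41.4 FPKM and ES27-4 43.4 FPKM, both within the SAC range of 41.3 to 43.96 FPKM. The log2 difference of the sum was 0.13 (limma adjusted p = 0.181).

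Gria1 and Gria3 had overlapping groups. Gria1 (chr11:57011387-57330244, plus strand) encodes GluA1, whose trafficking to synapses is regulated by activity. It had 27.9, 30.7, 26.9, 30.4, 28.2 and 28.9 FPKM in PAE brains, against 25.5, 29.3, 29.0, 26.6, 26.8 and 27.8 FPKM in SAC brains, a log2 difference of 0.07 with an interval of -0.03 to 0.16 (limma adjusted p = 0.348). Gria3 (chrX:41400854-41678601, plus strand) encodes GluA3, the partner of GluA2 in a further class of AMPA receptors. It had 5.76, 6.97, 6.09, 6.03, 3.90 and 4.88 FPKM in PAE brains, against 5.84, 6.24, 6.17, 6.76, 6.39 and 3.76 FPKM in SAC brains. ES27-1 and SAC26-8 were the low brains of their groups, and the log2 difference was -0.05 with an interval of -0.34 to 0.23 (limma adjusted p = 0.818).

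**Figure D2:**
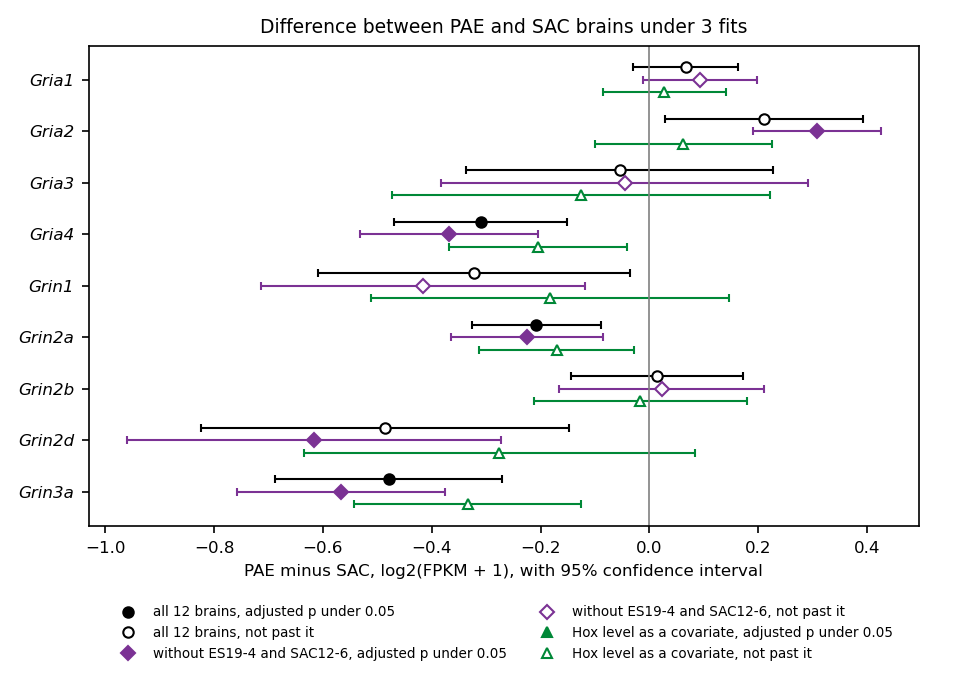
PAE minus SAC difference in log2(FPKM + 1) with its 95% confidence interval for each subunit gene, from all 12 brains (black circles), without ES19-4 and SAC12-6 (purple diamonds) and with Hox level as a covariate (green triangles), with filled symbols for a limma adjusted p under 0.05. Without the 2 brains Gria2 (0.31), Gria4 (-0.37), Grin2a (-0.23), Grin2d (-0.62) and Grin3a (-0.57) are filled, and with the covariate none is.

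ES19-4, the PAE brain with Hox expression, had the highest PAE value for Gria4, Grin1, Grin2d and Grin3a and the lowest for Gria2. SAC12-6, the SAC brain with almost none, had the highest SAC value for Gria1 and Gria2 and the lowest for Grin2d. Its summed cerebellum markers were the highest of all brains, at 32.2 FPKM. Those of the PAE brains other than ES19-4 were 13.4 to 16.5 FPKM. SAC12-6 was thus unlike those PAE brains in cerebellum markers, and neither Hox level nor leaving out ES19-4 and SAC12-6 matches the brains for all regions. Leaving out ES19-4 brought the members called to 4 lower (Gria4, Grin1, Grin2d and Grin3a) and 1 higher (Gria2) of 8 tested, where 10.3% of all genes were called lower and 8.97% higher. Leaving out both ES19-4 and SAC12-6 gave 3 lower and 1 higher, as Grin1 then had an adjusted p of 0.0556, where 9.34% of all genes were called lower and 7.83% higher. With Hox level as a covariate limma called 0 of the 8 members (2 lower at an unadjusted p under 0.05) and 0 of 12346 genes (1543 at an unadjusted p under 0.05). With the brains averaged by name prefix, limma likewise called 0 members (2 lower at an unadjusted p under 0.05) and 0 genes (2036 at that p). Leaving out SAC26-8 alone left 0 members called (3 lower and 1 higher at an unadjusted p under 0.05). In that limma fit 124 of 12346 genes were called (2913 at that unadjusted p).

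Because a receptor's properties depend on which subunits are available together, the balance between subunit genes was compared within each brain as a ratio of FPKM. The Gria4/Gria2 ratio was 0.596, 0.369, 0.339, 0.267, 0.434 and 0.401 in PAE brains, against 0.600, 0.497, 0.553, 0.554, 0.579 and 0.622 in SAC brains. All PAE brains but ES19-4 lay below every SAC brain. The log2 difference was -0.54 (two-sided exact permutation p = 0.0108 over all splits of the brains, adjusted p = 0.0216 over 4 ratios). The 4 ratios were chosen with earlier results of these data known, and ratios of other gene pairs were not tested. Their p-values are therefore not separate support for the differences of single genes. Gria2 made up 46.2 ± 4.33% of summed AMPA subunit FPKM in PAE and 41.0 ± 0.650% in SAC brains (SD, n = 6 each), and Gria4 18.1 ± 3.15% and 23.3 ± 1.65%. The AMPA sum itself was 96.8 ± 6.12 FPKM in PAE and 93.5 ± 2.82 FPKM in SAC brains.

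The Grin2a/Grin2b ratio was 0.0487, 0.0462, 0.0380, 0.0308, 0.0542 and 0.0383 in PAE brains, against 0.0678, 0.0586, 0.0556, 0.0461, 0.0703 and 0.0690 in SAC brains. Only SAC26-5 of the SAC brains fell within the PAE range, and the log2 difference was -0.53 (exact permutation p = 0.0108, adjusted p = 0.0216). The Grin2d/Grin2b ratio was 0.650, 0.510, 0.348, 0.240, 0.499 and 0.550 in PAE brains, against 0.692, 0.558, 0.522, 0.527, 0.955 and 0.813 in SAC brains. The groups overlapped through ES19-4 and ES27-4, and the log2 difference of -0.57 missed the threshold (exact permutation p = 0.0411, adjusted p = 0.0548). Grin2b made up 66.9 ± 7.20% of summed GluN2 FPKM in PAE and 58.0 ± 5.91% in SAC brains. The Gria1/Gria2 ratio differed by -0.15 on the log2 scale (exact permutation p = 0.123, adjusted p = 0.123).

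**Figure D3:**
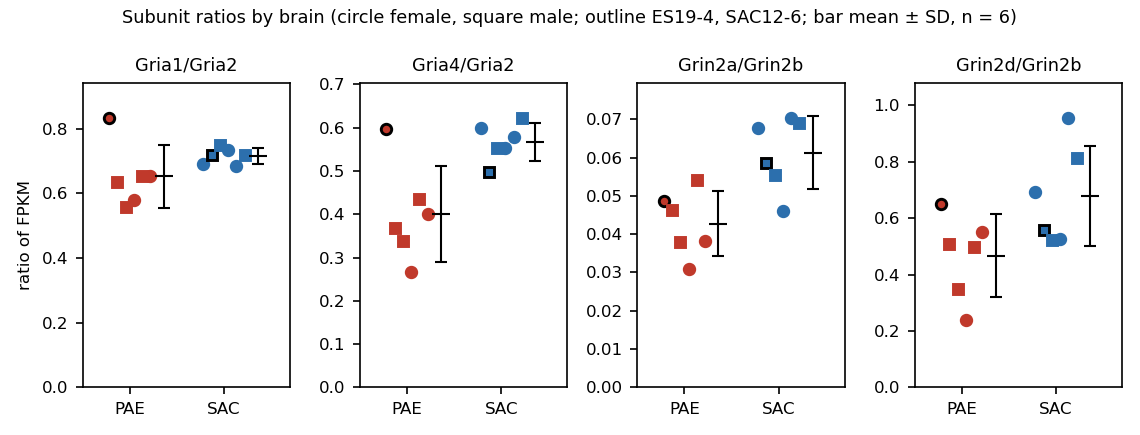
Ratios of FPKM (linear axes from 0) of Gria1 to Gria2, Gria4 to Gria2, Grin2a to Grin2b and Grin2d to Grin2b in each PAE (red, left) and SAC (blue, right) brain, with circles for females, squares for males, outlines on ES19-4 and SAC12-6 and bars for the mean ± SD (n = 6 each). ES19-4 sits among or above the SAC points for Gria1/Gria2 (0.833) and Gria4/Gria2 (0.596).

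The comparison was then made within each sex, with 3 brains in each of 4 groups. In males, limma called 0 of 8 members (3 lower at an unadjusted p under 0.05) where it called 0.0324% of all genes and found 9.90% lower at that unadjusted p. In females it called 0 of 8 (2 lower and 1 higher at an unadjusted p under 0.05), and 0% of all genes were called while 7.59% were lower at that p. Grin3a had the smallest adjusted p of the members in males, with a log2 difference of -0.58 (adjusted p = 0.113), and differed by -0.38 in females (adjusted p = 0.312). Gria4 had the smallest in females, with a log2 difference of -0.32 (adjusted p = 0.309), and differed by -0.30 in males (adjusted p = 0.196). PAE brains lay wholly below SAC brains of the same sex for Gria4, Grin2a and Grin3a in both sexes, which follows from their separation over all brains. They also lay wholly below for Grin1 and Grin2d in males, and wholly above for Gria2 in males and Gria1 in females. The share of all genes separated in this way with 3 brains a group was not computed, so these separations have no background to be read against.

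No member passed the test of the interaction between sex and PAE (0 at an unadjusted p under 0.05 in limma), in which 0.00810% of genes were called. The largest interaction estimates were 0.31 for Grin1 (95% confidence interval -0.28 to 0.91) and -0.22 for Gria3 (-0.81 to 0.37). With 3 brains a group, both intervals include a difference between the sexes as large as the PAE difference of the same gene. Females and males also did not differ past the threshold for any member (0 at an unadjusted p under 0.05 in limma), with 0.0324% of genes called. The X-linked Gria3 differed by 0.11 between females and males (-0.18 to 0.41).

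At the transcript level limma called 0 of 28 member transcripts (8 lower and 2 higher at an unadjusted p under 0.05) and 0% of all 26066 transcripts tested, of which 7.33% were lower and 6.18% higher at that unadjusted p. For Gria4 the 3 full-length models were Gria4-202, with the flip exon, and Gria4-201 and Gria4-204, with the flop exon, beside the truncated Gria4-203. The flop form Gria4-201 had 4.54, 1.93, 4.12, 1.75, 4.83 and 3.90 FPKM in PAE brains, against 7.64, 5.87, 6.91, 5.35, 6.92 and 5.87 FPKM in SAC brains (limma adjusted p = 0.134). Every PAE brain was below every SAC brain for Gria4-201. The share of all transcripts separated in this way was not computed, so this separation has no background to be read against. The flip form Gria4-202 had 11.0, 15.5, 11.8, 10.2, 11.2 and 10.1 FPKM in PAE brains, against 8.25, 10.7, 8.78, 11.5, 11.96 and 12.3 FPKM in SAC brains, with overlap. The flip share of flip and flop FPKM was thus 63.2 ± 11.4% in PAE and 46.8 ± 7.36% in SAC brains (SD, n = 6 each).

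For Gria1 the flip share was lower in mean in PAE brains, at 58.2 ± 15.8% in PAE and 76.8 ± 11.8% in SAC brains (SD, n = 6 each). Its flop transcript Gria1-202 had 21.8, 11.0, 11.5, 9.21, 15.2 and 10.5 FPKM in PAE brains, against 8.86, 3.99, 3.50, 6.97, 5.46 and 12.8 FPKM in SAC brains. ES19-4 was highest and the groups overlapped through SAC26-8, the one SAC brain in the PAE range (limma adjusted p = 0.188). Gria2 was mostly flop and steady, with a flip share of 24.6 ± 2.35% in PAE and 25.2 ± 1.98% in SAC brains. The Gria2 flop model has a last exon of 7265 bases and the flip model one of 920 bases, so that the share reads the long against the short 3′ end as much as the exon choice. The Gria3 flip share was 73.9 ± 17.3% in PAE and 85.1 ± 15.1% in SAC brains, with single brains between 49.4% and 96.6%.

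Usage, the log2 ratio of a transcript to the other listed transcripts of its gene, was tested for 27 member transcripts. Limma called 0 (2 lower and 2 higher at an unadjusted p under 0.05), against 0.0179% of all 22400 transcripts tested (1258 at that unadjusted p), and the smallest adjusted p was 0.866. In Gria2 and Gria3, with 2 listed transcripts each, usage compared flip with flop and did not pass. Gria1 and Gria4 have further listed transcripts, so their flip and flop shares above were not themselves tested and are descriptions. The models of each gene also differ in their 5′ and 3′ ends, and shares estimated from FPKM mix these with the exon choice.

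For Grin1 the share of transcript FPKM with the N1 cassette was 67.9 ± 8.12% in PAE and 71.7 ± 6.69% in SAC brains (SD, n = 6 each). The C1 cassette was in 49.3 ± 4.55% of PAE and 45.5 ± 1.93% of SAC transcript FPKM. The C2′ tail, whose last exon is 948 bases long in place of 1304 bases, took 49.8 ± 1.82% in PAE and 52.7 ± 1.54% in SAC brains. All 3 pairs of groups overlapped. The most abundant of the 8 forms were Grin1-204 in PAE brains (3.51 FPKM, with N1 and C1 and the C2 tail) and Grin1-207 in SAC brains (5.08 FPKM, with N1 and the C2′ tail, without C1).

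**Figure D4:**
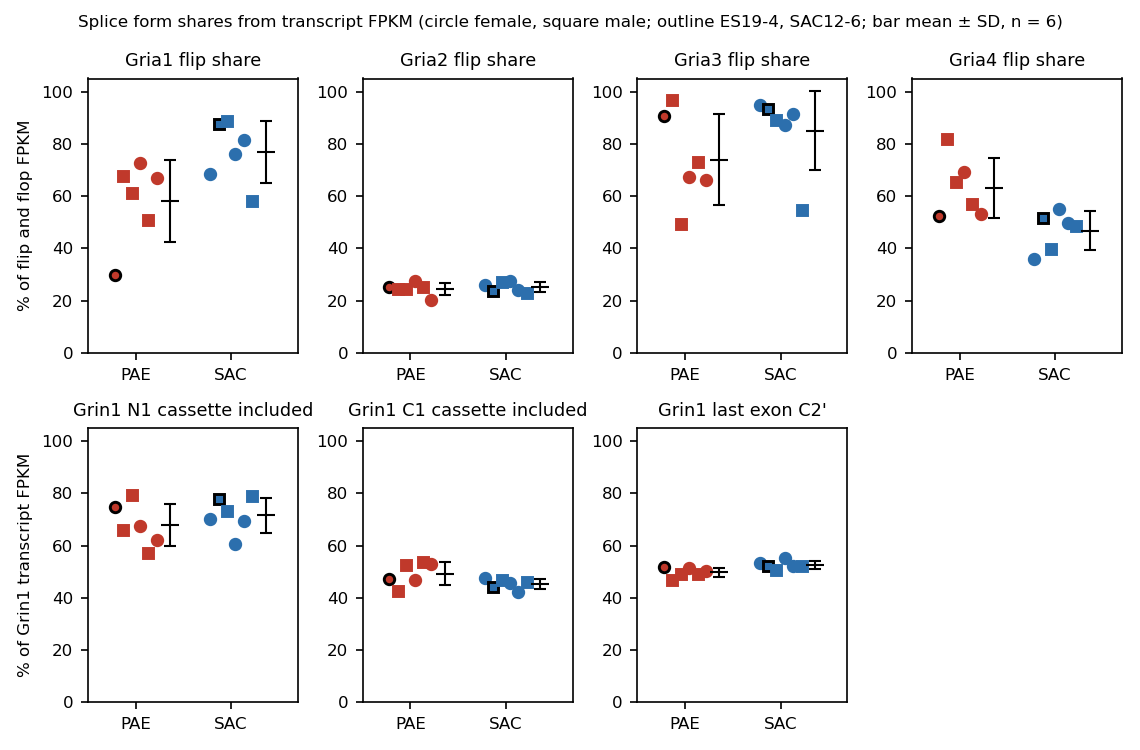
Top, the flip share in percent of flip and flop transcript FPKM for Gria1 to Gria4, and bottom, the percent of Grin1 transcript FPKM with the N1 cassette, with the C1 cassette and with the C2′ last exon, in each PAE (red, left) and SAC (blue, right) brain, with circles for females, squares for males, outlines on ES19-4 and SAC12-6 and bars for the mean ± SD (n = 6 each). The Gria2 panel stays between 20.4% and 27.6%, whereas Gria1 and Gria3 reach from 29.6% to 88.9% and from 49.4% to 96.6%.

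Some transcript estimates changed from brain to brain far more than their gene did. Among PAE brains Grin2d-203 had 6.74 FPKM in ES19-8 and 0.118 to 0.226 FPKM elsewhere. Among SAC brains it had 7.16, 9.47 and 10.4 FPKM in SAC12-5, SAC26-7 and SAC26-8, and 0.218 to 0.310 FPKM elsewhere. Grin2d-201 had 2.29 FPKM in ES19-8 and 3.26, 4.65 and 3.74 FPKM in those SAC brains, and 4.49 to 10.3 FPKM in the remaining 8. Both have a coding length of 3969 bases and differ in their first and last exons. Gria3-201 was likewise at 9.93 and 11.2 FPKM in ES19-4 and ES19-8 and at 1.06 to 3.64 FPKM in the other PAE brains, against 3.66 FPKM in SAC26-8 and 9.39 to 11.5 FPKM in the other SAC brains.

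Receptor function also rests on auxiliary subunits, scaffolds, kinases and the supply of glutamate and glycine, and 5 such lists (75 genes, 73 tested) were examined. Over all of them 10 genes were lower, 0 were higher at a limma adjusted p under 0.05, and 63 did not pass, beside 5.22% of all genes lower and 4.34% higher. Their median log2 difference was -0.07. Among the AMPA receptor auxiliary and clustering proteins 3 of 21 were lower (list median -0.11). Gsg1l, a claudin-like auxiliary subunit, had 8.20 ± 1.72 FPKM in PAE and 11.7 ± 1.00 FPKM in SAC brains (SD, n = 6 each, limma adjusted p = 0.0220). Shisa9, an auxiliary subunit that slows recovery from desensitization, had 9.61 ± 1.599 and 12.4 ± 0.396 FPKM (adjusted p = 0.0299), and Nptxr, the neuronal pentraxin receptor, 35.7 ± 5.77 and 45.7 ± 3.48 FPKM (adjusted p = 0.0348). Cacng7, a transmembrane AMPA receptor regulatory protein, was just outside the threshold at 32.5 ± 2.78 FPKM in PAE and 28.8 ± 0.866 FPKM in SAC brains (adjusted p = 0.0501).

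In the list of glycine and glutamate supply 3 of 11 were lower (list median -0.25). They were the glycine transporter Slc6a9 (2.47 ± 0.569 FPKM in PAE and 4.01 ± 0.619 FPKM in SAC brains, limma adjusted p = 0.0207) and the vesicular glutamate transporters Slc17a8 (1.09 ± 0.544 and 2.32 ± 0.409 FPKM, adjusted p = 0.0220) and Slc17a6 (23.3 ± 5.22 and 33.2 ± 3.84 FPKM, adjusted p = 0.0377). Slc17a6 is the transporter of most glutamatergic neurons of thalamus, midbrain and hindbrain. Slc1a2, the main astrocyte glutamate transporter, had 11.7 ± 2.35 and 15.2 ± 1.596 FPKM (adjusted p = 0.0502).

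The share called lower was near that of all genes (5.22%) in the lists of scaffolds and of calcium signalling and RNA editing. Of the scaffolds 1 of 19 was lower (list median -0.04), Nsf, the ATPase of membrane fusion that also binds GluA2 (15.9 ± 3.46 FPKM in PAE and 21.98 ± 2.16 FPKM in SAC brains, limma adjusted p = 0.0353). The postsynaptic density proteins Dlgap4 (30.9 ± 1.83 and 28.2 ± 1.10 FPKM, adjusted p = 0.0689), Dlgap3 (10.4 ± 1.57 and 12.5 ± 0.955 FPKM, adjusted p = 0.0706) and Homer2 (4.09 ± 0.250 and 4.55 ± 0.1996 FPKM, adjusted p = 0.0973) did not pass. Of 14 genes for calcium signalling and RNA editing 1 was lower (list median -0.10), the kinase subunit Camk2d (2.43 ± 0.577 and 3.65 ± 0.732 FPKM, adjusted p = 0.0356). Camk2g (adjusted p = 0.103), Calm3 (adjusted p = 0.171) and Ptpn5, the phosphatase of GluN2B (adjusted p = 0.202), did not pass.

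The list of other ionotropic glutamate receptor genes also held Neto1 and Neto2, which encode auxiliary proteins. Of its 8 genes tested 2 were lower (list median -0.03). Grid1, a delta receptor gene, had 6.16 ± 0.855 FPKM in PAE and 7.71 ± 0.302 FPKM in SAC brains (SD, n = 6 each, limma adjusted p = 0.0268). Grik1, a kainate receptor subunit gene, had 5.31 ± 0.520 and 6.83 ± 0.947 FPKM (adjusted p = 0.0396). Grik3 had 25.1 ± 1.79 and 22.8 ± 1.12 FPKM (adjusted p = 0.0920), and Grik4 1.90 ± 0.299 and 2.31 ± 0.435 FPKM (adjusted p = 0.215). The number of partner genes called lower was 21 without ES19-4, where 10.3% of all genes were called lower. It was 0 without SAC26-8, where 124 of all 12346 genes were called in either direction. With Hox level as a covariate it was 0, as it was for all genes.

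**Figure D5:**
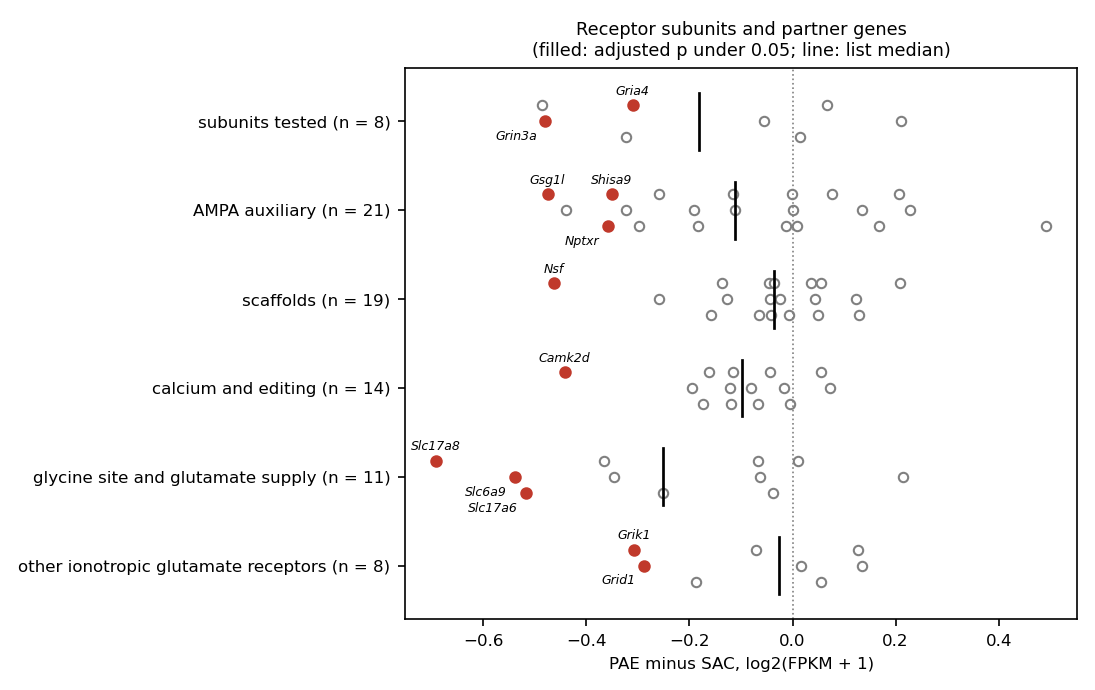
PAE minus SAC difference in log2(FPKM + 1) of the 8 tested subunit genes (top) and of the 73 tested partner genes in 5 lists, each circle 1 gene, filled where the limma adjusted p was under 0.05, with a line at each list's median. All 12 filled circles (2 subunits and 10 partners) lie on the lower side, between -0.29 and -0.69.

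Some of the subunit genes varied together between brains of the same group. After the group means were taken out, Pearson r over the 36 pairs of subunit genes ran from -0.76 to 0.91 with a median of 0.10, and 22 pairs lay between -0.5 and 0.5. Gria4 and Grin2d had a Pearson r of 0.91 over the 12 brains, Grin2d and Grin3a 0.89, and Gria4 and Grin3a 0.86. Gria2 ran against them (-0.76 with Grin3a and -0.70 with Gria4). These are descriptions over brains that share a name prefix in part, with ES19-4 at one end of the PAE group for all 4 genes. Over all tested genes the closest to Gria4 were Creg2 (0.98), Tmem91 (0.98) and Rcan2 (0.98). Those closest to Grin3a were Chgb (0.98), Gaa (0.98) and Syn1 (0.98), to Grin2d Plk3 (0.96), Cdk5r2 (0.95) and Tmem130 (0.95), and to Grin1 Eml2 (0.91), Olig2 (0.91) and Cib2 (0.90). Those closest to Gria2 were Flna (0.96), Zfp950 (0.95) and Sf3b1 (0.94), to Grin2b Jmy (0.93), Zfp579 (0.92) and Ncoa1 (0.91), to Gria3 Usp46 (0.92), Bad (0.87) and Zfp27 (0.83), and to Gria1 Kcnip2 (0.87), Wfs1 (0.87) and Gucy1b3 (0.86).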

How the data were processed

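Messenger RNA of 12 embryonic brains (6 PAE, 6 SAC) was analysed from 2 deposited tables. The authors made stranded libraries after poly-A selection, sequenced paired ends, and used FastQC (read quality), cutadapt (trimming), HISAT2 (alignment), StringTie and Ballgown (FPKM of genes and transcripts). Their versions were not given in the sources used here. GRCm28 is the build named in the paper, whereas all 9 member identifiers and positions match GENCODE M21 on GRCm38. The deposited FPKM hold no counts: in a search of 1374 single-transcript genes at most 27% of low values came out as whole multiples of a step (within 0.05), so the depth is unknown and count models were not used. Libraries of 12 brains gave Spearman correlations of 0.960 to 0.989 and no pair was identical.

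Groups and sexes came from the labels. FPKM were transformed to log2(FPKM + 1), and genes averaging 1 FPKM or more (transcripts 0.5) were tested with limma 3.58.1 in R 4.3.3 (variance trend, Benjamini-Hochberg adjustment over all features, adjusted p under 0.05). The sexes, the interaction and females against males came from 1 fit of 4 groups. Usage took a pseudocount of 0.1 and genes of at least 1 FPKM. Within-brain ratios were tested by exact permutation. Covariate-free alternatives were pseudocounts, no filter, median-of-ratios scaling, transcript sums, exact tests per gene and leaving out each brain. Further alternatives were sex, mean log2 Hox level, means per name prefix, and a random block for the prefix (statmod 1.5.0). The fit without ES19-4 and SAC12-6 was added after seeing the data. The fits were tested on simulated data.

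The text names all members, the 4 genes of smallest p in each partner list and the 3 genes most correlated with each tested member. Of the 28 member transcripts, which all averaged at least 0.5 FPKM, it names a selection. Members, lists and tests were chosen with earlier results of these data known. Cell type marker lists are given as summed FPKM. Sequences were read from GENCODE M21 transcripts.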

Additional observations from a re-analysis of the deposited data

Results flagged for a closer look

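In 40 sets of 6 values (each member's FPKM, ratio or share in PAE or in SAC brains), 3 held a brain that stood apart from the other 5 by Dixon's gap test at the 95% level (a gap over range above 0.625), and chance gives about 1 in 20. Gria3 in SAC26-8 was at 3.76 FPKM, against 5.84 to 6.76 FPKM in the other SAC brains (gap over range 0.694). In the same brain the Gria3 flip share was 54.8%, against 87.1% to 94.8% in the others (0.806). The Gria1/Gria2 ratio of ES19-4 was 0.833, against 0.558 to 0.655 in the other PAE brains (0.648). That ratio rests on the gene values. The listed Gria2 transcripts of ES19-4 summed to 1.24 times its gene value, the highest such factor for Gria2 among the 12 brains. The gap test was not run on ratios of the sums. ES19-4 is the PAE brain with Hox expression, and the part of tissue sampling in its ratio was not tested.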

How the results depend on the processing

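The call of Gria4 and Grin3a as lower held under a pseudocount of 0.1, no filter, median-of-ratios scaling, sex as a covariate, a random block for the name prefix, and sums of listed transcripts. It did not hold under means of each name prefix (0 members lower) or with Hox level as a covariate (0 members lower), where Grin2b turned to -0.017. The prefix means rest on 5 values, and the cause was otherwise not tested. Without ES19-4 and SAC12-6, 1 member was higher and 21 partner genes were lower, where 7.83% of all genes were higher and 9.34% lower. Median-of-ratios scaling gave 1 of 73 partner genes higher, where 546 of 12346 genes were called higher. Leaving out each brain in turn gave 0 to 4 members lower and 0 to 1 higher, 0 to 21 partner genes lower and 0 to 1 higher, 0 to 1 members called in females and 0 to 1 member transcripts called. Calls over all genes moved too, with 2385 of 12346 without ES19-4 and 124 without SAC26-8. For the fits in females and of transcripts that left out a brain, the share of all features called was not computed. Over the fits that left out a brain, the log2 difference ranged from -0.16 to 0.028 for Gria3 and from -0.025 to 0.049 for Grin2b. It ranged from -0.22 to -0.10 for the Gria1/Gria2 ratio (called without ES19-4) and from -0.68 to -0.40 for the Grin2d/Grin2b ratio (called without ES19-4). Exact permutation of each gene gave an unadjusted p of 0.00216 for Gria4, Grin2a and Grin3a (the smallest it can give), 0.0173 for Grin2d and 0.0476 for Gria2. The sum of listed transcripts gave -1.01 for Gria3 (adjusted p = 0.110, limma), against -0.05 from the gene table. No paired analysis was possible because the number in a brain's name identifies it within its prefix, and no label ties a number in PAE to the same number in SAC. All FPKM were without counts, so the error of single values, most of all of Grin2a, is unknown.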

Other observations

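The sum of the listed transcripts did not equal the gene value in the gene table. The sum was 2.19 to 2.33 times the gene FPKM for Grin1 over the 12 brains and 1.496 to 1.57 times for Grin3a, a nearly constant factor. Such factors differ between genes, so the order of Grin1 and Grin2b within a brain depends on which value is used. For Gria3 the sum was 0.291 times the gene FPKM in ES23-7 and 1.95 times in SAC26-5, so that the 2 tables rank the brains differently for that gene. They also do so for Gria2, where the sum was 0.984 times the gene FPKM in ES27-4 and 1.24 times in ES19-4. ES19-4 had the lowest Gria2 gene value of all brains, but its transcript sum was above those of SAC12-5 and SAC26-5.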
